A study of Mus musculus with 6 samples.

Results

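The Serpina genes studied here are 10 serpin genes of mouse chromosome 12, Serpina1a, Serpina1b, Serpina1e, Serpina3c, Serpina3k, Serpina3m, Serpina3n, Serpina6, Serpina10 and Serpina12. On the array 18193 genes had a probe set listed for them alone. In GRCm38.p6 the 10 genes lie between positions 103616675 and 104414334. They were read from the probe sets that the platform annotation lists for 1 of these genes and for no other gene, which gave 7 of the 45037 probe sets tested. A further set lists Serpina1a together with Serpina1d, which is not among the 10. Counting it would give 8, and it was described apart because its signal cannot be given to Serpina1a alone. These 7 cover 5 of the 10 genes: Serpina1b and Serpina12 with 2 probe sets each, and Serpina3n, Serpina6 and Serpina10 with 1 each. Serpina1a and Serpina1e are listed only on probe sets shared with other genes, and the annotation used here lists no probe set for Serpina3c, Serpina3k or Serpina3m, so these 5 genes have no value of their own here. The 6 Affymetrix arrays, hybridised with a single dye, held liver RNA of A/J-12SM mice (3 arrays) and of A/J mice (3 arrays). A/J-12SM is a consomic strain in which chromosome 12 comes from SM/J and the remaining chromosomes from A/J, and A/J is the recipient strain. All mice were males fed a high-fat diet for 7 weeks, their age is not given in the labels, and each array held RNA combined from 3 mice, so the spread between arrays is that between groups of mice. Because the whole of chromosome 12 differs between the strains, an effect of the cluster's own sequence and an effect of another gene of the chromosome cannot be told apart. A sequence difference between SM/J and A/J under the probes could also alter a signal, and its part in the results was not tested.

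Serpins are protease inhibitors that carry an exposed loop as bait. A protease that cuts the loop is trapped in a covalent complex, and the serpin is used up. Hepatocytes secrete most of the serpins in plasma, among them the alpha-1-antitrypsin family (Serpina1 genes in the mouse), which restrains neutrophil elastase. The mouse has several copies of the Serpina1 and Serpina3 genes where humans have SERPINA1 and SERPINA3, and some members, such as the corticosteroid carrier Serpina6, bind a hormone and inhibit no protease.

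RefSeq promoters of GRCm38.p6, which is a C57BL/6J sequence and not that of A/J or SM/J, were given for 6 of the 10 genes: Serpina1a, Serpina1b, Serpina1e, Serpina3c, Serpina3n and Serpina12. The 4 below are shown because they cover the genes with the largest strain differences, the alpha-1-antitrypsin family, and a Serpina3 gene with a promoter close to that of Serpina3n. Each is the 250 bases before the start of the RefSeq transcript chosen for the gene, which for Serpina3n and Serpina3c lies inside the annotated gene span, from chr12:104406458-104406707 (plus strand) for Serpina3n, chr12:104153873-104154122 (minus strand) for Serpina3c, chr12:104044444-104044693 (minus strand) for Serpina12 and chr12:103738190-103738439 (minus strand) for Serpina1b. Capitals mark matches, on either strand, to the TATA box written as TATAAA, to the HNF1 core written as GTTAAT, to the HNF4 core written as CAAAG, to the C/EBP site written as TTGCNNAA and to the STAT site written as TTCNNNGAA. In Serpina1b the second HNF4 core overlaps the C/EBP match, and in Serpina3c the HNF1 and HNF4 cores share a base.
Serpina3n: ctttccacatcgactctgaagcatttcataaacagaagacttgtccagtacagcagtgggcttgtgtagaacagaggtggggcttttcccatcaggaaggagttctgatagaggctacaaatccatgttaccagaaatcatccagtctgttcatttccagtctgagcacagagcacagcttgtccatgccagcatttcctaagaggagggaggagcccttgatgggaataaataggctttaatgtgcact
Serpina3c: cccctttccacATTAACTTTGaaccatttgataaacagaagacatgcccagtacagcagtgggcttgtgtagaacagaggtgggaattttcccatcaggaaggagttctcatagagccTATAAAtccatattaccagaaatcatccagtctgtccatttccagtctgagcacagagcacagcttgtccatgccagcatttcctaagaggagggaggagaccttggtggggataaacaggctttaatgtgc
Serpina12: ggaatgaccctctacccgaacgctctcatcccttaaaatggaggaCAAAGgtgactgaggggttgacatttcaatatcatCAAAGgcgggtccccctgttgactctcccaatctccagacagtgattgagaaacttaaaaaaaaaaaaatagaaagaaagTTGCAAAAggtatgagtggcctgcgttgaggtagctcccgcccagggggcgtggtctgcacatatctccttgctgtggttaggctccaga
Serpina1b: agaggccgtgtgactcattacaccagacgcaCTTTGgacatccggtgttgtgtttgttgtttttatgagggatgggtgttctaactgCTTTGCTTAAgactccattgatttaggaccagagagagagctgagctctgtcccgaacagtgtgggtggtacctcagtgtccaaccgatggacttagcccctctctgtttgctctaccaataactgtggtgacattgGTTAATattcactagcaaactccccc
The Serpina3n and Serpina3c promoters were identical at 229 of 253 aligned positions (90.5%), and those of Serpina1b and Serpina1a at 225 of 257 (87.5%). Serpina1b and Serpina3n shared 46.2%. The Serpina1b promoter held 1 GTTAAT match, as did those of Serpina1a, Serpina1e and Serpina3c, and GTTAAT occurred in 6.43% of 32851 promoters of this length. The Serpina3n window held none of the 5 motifs, which says only that these letters are not in it. Of all promoters 12.4% held the TATA box, 48.6% the HNF4 core, 9.56% the C/EBP site and 7.02% the STAT site.

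The deposited MAS5 signals, which summarise the short probes of a set into 1 value on a linear scale, had a median per array of 36.6 to 43.9 in A/J-12SM and 41.5 to 50.1 in A/J liver. Over all probe sets the median difference of the deposited values was -0.22 on the log2 scale (A/J-12SM minus A/J). The log2 values were therefore quantile normalised, after which this median was 0.00, and strains were compared with limma. Replicate arrays differed by a median SD of 0.21 (log2) where the probe set was brighter than the median and of 0.86 where it was dimmer. The defining markers of hepatocytes were present in both strains, with summed deposited signals of 117352 to 129307 in A/J-12SM and 119062 to 126269 in A/J for 7 measured markers. In bulk liver RNA, fewer cells of a type and less RNA per cell cannot be told apart.

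In limma none of the 7 was called at an adjusted p under 0.05, against 0.0555% of all probe sets (25 of 45037). At an unadjusted p under 0.05, 2 of the 7 had lower values in A/J-12SM liver, those of Serpina3n and the brighter set of Serpina12, against 3.01% of all probe sets. Of the 7 differences 5 were below and 2 above 0, with a median of -0.08, against 0.00 over all probe sets. The genes thus fell into 2 kinds of pattern: the Serpina1b, Serpina6 and Serpina10 probe sets had differences of at most 0.09 in size after quantile normalisation, and Serpina3n and Serpina12 had lower means in A/J-12SM liver.

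**Figure D1:**
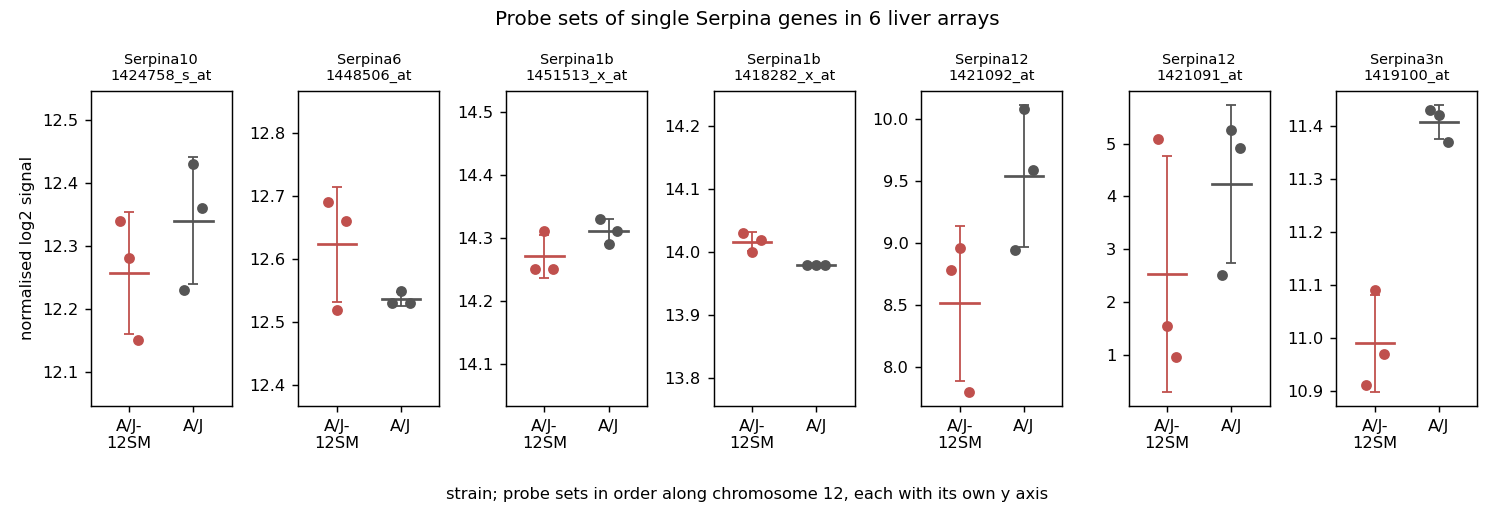
Normalised log2 signal (y axis, a separate scale in each panel) of the 7 probe sets of single Serpina genes in A/J-12SM (red, left) and A/J (grey, right) liver; each point is 1 array in the order of replicates 1 to 3, a line gives the mean of 3 arrays and a bar its SD. The strains are apart for Serpina3n, by 0.41 between means, and for the second Serpina1b panel by 0.04, and the arrays overlap in the others.

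Serpina3n, an inhibitor of cathepsin G and other serine proteases that is induced in the acute phase response, was measured by probe set 1419100_at (chromosome 12, 104406646 to 104414334). Its deposited signals were 1741, 2112 and 1901 in A/J-12SM liver, against 3030, 2772 and 2830 in A/J liver. Every A/J-12SM array lay below every A/J array. After normalisation the log2 values were 10.91, 11.09 and 10.97 in A/J-12SM and 11.43, 11.42 and 11.37 in A/J liver, again without overlap. The difference was -0.41 (SE 0.08, 95% interval -0.60 to -0.23), a ratio of 0.75 of A/J-12SM to A/J. With p-values adjusted across the array it was not called (adjusted p = 0.317, unadjusted p = 0.000574 from limma), although 0.175% of probe sets had a p as small. The exact two-sided permutation test gave p = 0.1, the smallest that 3 arrays against 3 allow, and 5.83% of all probe sets had all A/J-12SM arrays below all A/J arrays. The difference was -0.59 in the values as deposited, which is -0.37 relative to the median of all probe sets, and its lowest adjusted p under any alternative was 0.0783, with those deposited values.

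The arrays varied little within a strain for Serpina3n, with an SD of 0.10 in A/J-12SM and 0.03 in A/J liver. The difference stayed between -0.47 and -0.38 with any array left out. The 8 markers of Kupffer cells and macrophages, none of them called, also had lower normalised values in A/J-12SM liver, with a median of -0.28. Their summed deposited signals were 4728 to 5492 in A/J-12SM against 6345 to 7260 in A/J. Deposited signals were lower in A/J-12SM over all probe sets, with a median difference of -0.22. Sums of 6 sinusoidal endothelial markers were also apart, at 3111 to 3254 in A/J-12SM against 3533 to 3715 in A/J. Their normalised median was -0.02. The sums overlapped for the other cell type marker sets read. The part of the Kupffer cell and macrophage markers in the Serpina3n result was not tested.

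Outside the cluster, 11034 genes had a probe set of at least median brightness, and those whose normalised values followed Serpina3n most closely over the 6 arrays were Zbtb10, a zinc finger protein (Pearson r = 0.989), Hamp, the iron regulatory hormone hepcidin (r = 0.987), and Tfpt (r = 0.982). These values describe 6 arrays that share a strain split and are given without a p. Hamp had log2 values of 13.52, 13.71 and 13.60 in A/J-12SM and 13.92, 13.92 and 13.83 in A/J liver, a difference of -0.28 (SE 0.09, adjusted p = 0.642 from limma). Its A/J-12SM arrays, like those of Serpina3n, were lowest in replicate 1 and highest in replicate 2. The choice of genes by correlation favours such a shared order, so it adds no further evidence.

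Acute phase genes outside the cluster, a list of 22 that includes serum amyloids, orosomucoids and fibrinogen chains, had 17 lower and 5 higher values in A/J-12SM liver. None was called, 5 had an unadjusted p under 0.05 in the lower and 1 in the higher direction, against 3.01% and 3.23% of all probe sets, and the list median was -0.03. The differences were uneven across the list. Orm2, a lipocalin-type plasma carrier, had log2 values of 6.74, 6.57 and 6.41 in A/J-12SM and 7.21, 8.76 and 8.16 in A/J liver, with a difference of -1.48 (SE 0.32, adjusted p = 0.385 from limma). Lcn2, an iron siderophore-binding lipocalin, had a difference of -1.43 (SE 0.44, adjusted p = 0.633 from limma). Saa1 and Saa2, serum amyloid proteins chosen after their values were seen, had differences of -1.21 (SE 0.29) and -1.27 (SE 0.35). In these 4 genes A/J replicate 1 was the lowest A/J array, at 7.21 for Orm2, 6.92 for Lcn2, 11.12 for Saa1 and 8.46 for Saa2. For Serpina3n the A/J arrays were close to each other, at 11.43, 11.42 and 11.37. Further secreted members ranged from Saa3, another serum amyloid, at -0.69 (SE 0.25) and Orm1, a second orosomucoid, at -0.35 (SE 0.18) to Hp, haptoglobin, at -0.02 and Fgb, the fibrinogen beta chain, at -0.01. These 4 were also picked with their values known. Among the 5 higher, Socs3 came first at 0.63 (SE 0.43) and Il6ra next at 0.39 (SE 0.17), both picked with their values known.

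**Figure D2:**
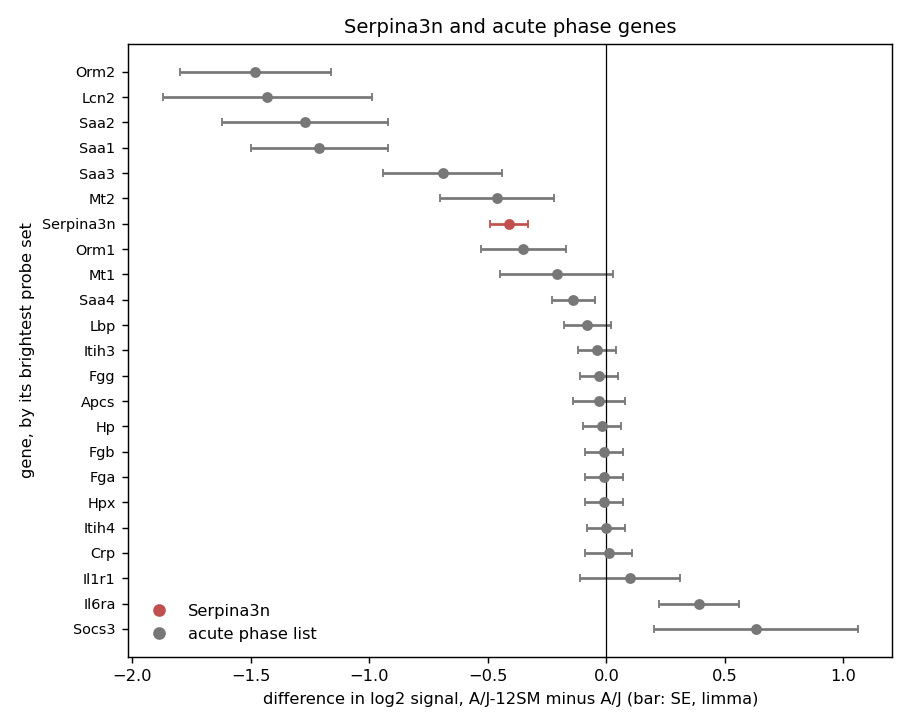
Difference in normalised log2 signal (A/J-12SM minus A/J, x axis) for Serpina3n (red) and the 22 acute phase genes of the list (grey), each by its brightest probe set (y axis, in order of the difference); points are differences and bars are the SE from limma. Serpina3n, at -0.41, lies between the group from Orm2 (-1.48) to Mt2 (-0.46) and the many genes close to 0. Il6ra (0.39) and Socs3 (0.63) lie at the other end.

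Serpina12, or vaspin, an adipokine that inhibits kallikrein 7, lies at 104028769 to 104044443. By its brighter probe set, 1421092_at, the deposited signals were 394, 477 and 202 in A/J-12SM liver, against 543, 1120 and 836 in A/J liver. The strains did not overlap on this scale. After normalisation the log2 values were 8.78, 8.96 and 7.80 in A/J-12SM and 8.94, 10.08 and 9.59 in A/J liver, where A/J-12SM replicate 2 and A/J replicate 1 overlapped by a small margin. The difference was -1.03 (SE 0.33, 95% interval -1.76 to -0.29), a ratio of 0.491 of A/J-12SM to A/J, with an adjusted p = 0.654 and an unadjusted p = 0.0111 from limma. The spread within a strain was wide, with SDs of 0.63 in A/J-12SM and 0.58 in A/J liver. The lowest array, A/J-12SM replicate 3, also had the lowest actin ratio (5′ over 3′ probe sets, a sign of RNA integrity), at 0.423. The ratio was 0.553 and 0.561 in the other A/J-12SM arrays and 0.571 to 0.590 in A/J arrays. The same ratio for GAPDH did not single it out, at 1.53 against 1.45 to 1.55 in the other arrays. The part of RNA quality in the Serpina12 value was not tested. Without A/J-12SM replicate 3 the difference was -0.67, and without A/J replicate 1 it was -1.33. The other Serpina12 probe set, 1421091_at, was dim, with deposited signals of 29, 3.05 and 1.75 in A/J-12SM and 6.23, 44 and 29 in A/J liver. Its difference of -1.70 (95% interval -4.26 to 0.85) had the same sign and gives no further precision. Both probe sets report the same RNA and are not replicates.

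Alpha-1-antitrypsin was at the top of the array's range in both strains. The 2 Serpina1b probe sets (103728156 to 103738189) gave deposited signals of 18993, 21448 and 18214 in A/J-12SM and 21899, 19771 and 20140 in A/J liver for 1451513_x_at, with overlap. For 1418282_x_at they were 16440, 16891 and 15537 in A/J-12SM and 17143, 16382 and 15906 in A/J liver, also with overlap. The highest signal of any probe set on an array was 23368 to 26868 in A/J-12SM and 24458 to 26200 in A/J liver, so a difference in RNA at this level may be compressed, which was not tested.

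The normalised Serpina1b values differed by -0.05 (95% interval -0.23 to 0.14) for 1451513_x_at and by 0.04 (95% interval -0.14 to 0.22) for 1418282_x_at, with adjusted p = 0.949 and adjusted p = 0.958 from limma. They cover ratios from 0.853 to 1.16 of A/J-12SM to A/J, and hold for this scaling only. With arrays centred on the median the differences were 0.16 for 1451513_x_at and 0.22 for 1418282_x_at, and with arrays scaled to 1 trimmed mean they were 0.13 and 0.19 in the same order, none of them called. Quantile normalisation replaces each signal by the mean of those with the same rank, so at the top of the array the normalised spread reflects ranks. Probe set 1418282_x_at was number 45 from the top in all 3 A/J arrays and number 36, 42 and 38 in the A/J-12SM arrays, which gave the A/J arrays an SD of 0.00 and put all A/J-12SM arrays above them. This absence of overlap, found in the same direction for 6.13% of all probe sets, was not seen in the deposited signals. Both IDs end in _x_at, which the platform uses for sets with probes that may also match other genes.

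Other Serpina1 probe sets gave the same picture. The probe set 1420553_x_at, listed for Serpina1d and Serpina1a together, had deposited signals of 18225, 21308 and 17982 in A/J-12SM and 22264, 19230 and 19373 in A/J liver, and a normalised difference of -0.04 (95% interval -0.24 to 0.15). The probe set 1449321_x_at, listed for Serpina1e, Serpina1c and Serpina1b, was less bright, with 3966, 6569 and 4689 in A/J-12SM and 5783, 5121 and 4563 in A/J liver, and differed by 0.10 (95% interval -0.23 to 0.42). The transcript that this probe set is annotated with belongs to Serpina1d in the GRCm38.p6 annotation, which is not among the genes listed for it, so its gene is uncertain. No single family member was given a value from either set.

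Serpina6, corticosteroid-binding globulin (103646630 to 103657218), carries glucocorticoids in blood. Its deposited signals were 6008, 5924 and 6243 in A/J-12SM and 6360, 6111 and 6183 in A/J liver, which overlap. The normalised difference was 0.09 (95% interval -0.09 to 0.27, adjusted p = 0.893 from limma). Of 10 measured genes of glucocorticoid handling and response, none was called, with 7 higher and 3 lower values and a median of 0.12. Per1, a clock gene that glucocorticoids induce, had log2 values of 6.34, 6.16 and 5.88 in A/J-12SM and 5.13, 5.48 and 5.34 in A/J liver, a difference of 0.81 (SE 0.26, adjusted p = 0.654 from limma). Pck1, a gluconeogenic enzyme, had 12.03, 12.05 and 12.63 in A/J-12SM and 11.37, 11.25 and 11.68 in A/J liver, a difference of 0.81 (SE 0.17, adjusted p = 0.338 from limma). Every A/J-12SM array lay above every A/J array for 3 of the 10 genes, these 2 and Sgk1, against 6.13% of all probe sets. Sgk1, picked with its values known, had a difference of 0.51 (SE 0.15). At an unadjusted p under 0.05 in limma, 3 of the 10 were higher and 1 was lower, against 3.23% and 3.01% of all probe sets. Tsc22d3, a leucine zipper protein that glucocorticoids induce, lay the other way, with log2 values of 9.47, 9.64 and 9.40 in A/J-12SM and 9.85, 9.63 and 10.12 in A/J liver and a difference of -0.36 (SE 0.13, adjusted p = 0.734 from limma). Its arrays overlapped, and it was picked with its values known.

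Serpina10, the protein Z-dependent inhibitor of coagulation factor X (103616675 to 103631490), had deposited signals of 4712, 4963 and 4325 in A/J-12SM and 5150, 5584 and 5519 in A/J liver. The deposited arrays did not overlap, and their difference of -0.22 equalled the median shift of all probe sets. After normalisation the arrays overlapped, and the difference was -0.08 (95% interval -0.28 to 0.12, adjusted p = 0.91 from limma). Its cofactor Proz, protein Z, differed by -0.08 (SE 0.14), and its target F10, coagulation factor X, by -0.02 (SE 0.09); this pair of genes was picked with their values known.

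Of 13 protease and cofactor partners of the cluster, 6 had higher and 7 lower values, none was called, and the median was -0.02. The 2 with the largest differences at or above the median brightness were Klk1, tissue kallikrein, at 0.23 (SE 0.18), and Klkb1, plasma prekallikrein, at 0.20 (SE 0.09). The leukocyte proteases of the list were dimmer than the median probe set. Gzmb, granzyme B, had the largest difference of the list, with log2 values of 1.90, 3.23 and 3.78 in A/J-12SM and 5.06, 4.85 and 5.52 in A/J liver, without overlap, and a difference of -2.17 (SE 0.60, adjusted p = 0.572 from limma). The arrays overlapped for Elane and Ctsg, with mean log2 values of 4.56 in A/J-12SM and 4.84 in A/J for Elane, neutrophil elastase, and 2.84 in A/J-12SM and 3.80 in A/J for Ctsg, cathepsin G, where the median brightness of all probe sets was 5.33. The arrays also overlapped for Prtn3, at -0.27 (SE 0.84), and for Cma1, which lay the other way at 0.59 (SE 0.78). Klk7, the kallikrein that Serpina12 inhibits, was also dim and differed by -1.78 (SE 1.04), with overlap. Gzmb, Elane, Ctsg, Prtn3, Cma1 and Klk7 were picked with their values known.

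Of the 15 listed other Serpina genes of the cluster, 8 were measured, with 4 higher and 4 lower values, none called and a median of -0.02. Serpina1c, a further alpha-1-antitrypsin copy named with its values known, had deposited signals of 18443, 20199 and 17642 in A/J-12SM and 19562, 19516 and 18541 in A/J liver and a normalised difference of 0.00 (95% interval -0.18 to 0.19). Serpina11, a liver serpin, had a difference of 0.26 (SE 0.13, adjusted p = 0.824 from limma). Its log2 values were 10.23, 10.52 and 10.06 in A/J-12SM and 9.83, 10.11 and 10.10 in A/J liver, and the arrays overlapped. The pseudogene Serpina4-ps1 had 3 probe sets with differences of -0.04, -0.13 and 0.25, and by its brightest the deposited signals were 698, 662 and 151 in A/J-12SM and 371, 752 and 440 in A/J liver. The lowest value was again A/J-12SM replicate 3, and without it the difference of the brightest set was 0.68. Serpina9, chosen after its values were seen, was dim and differed by 1.90 (SE 0.70, adjusted p = 0.745 from limma), with overlap of the arrays.

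**Figure D3:**
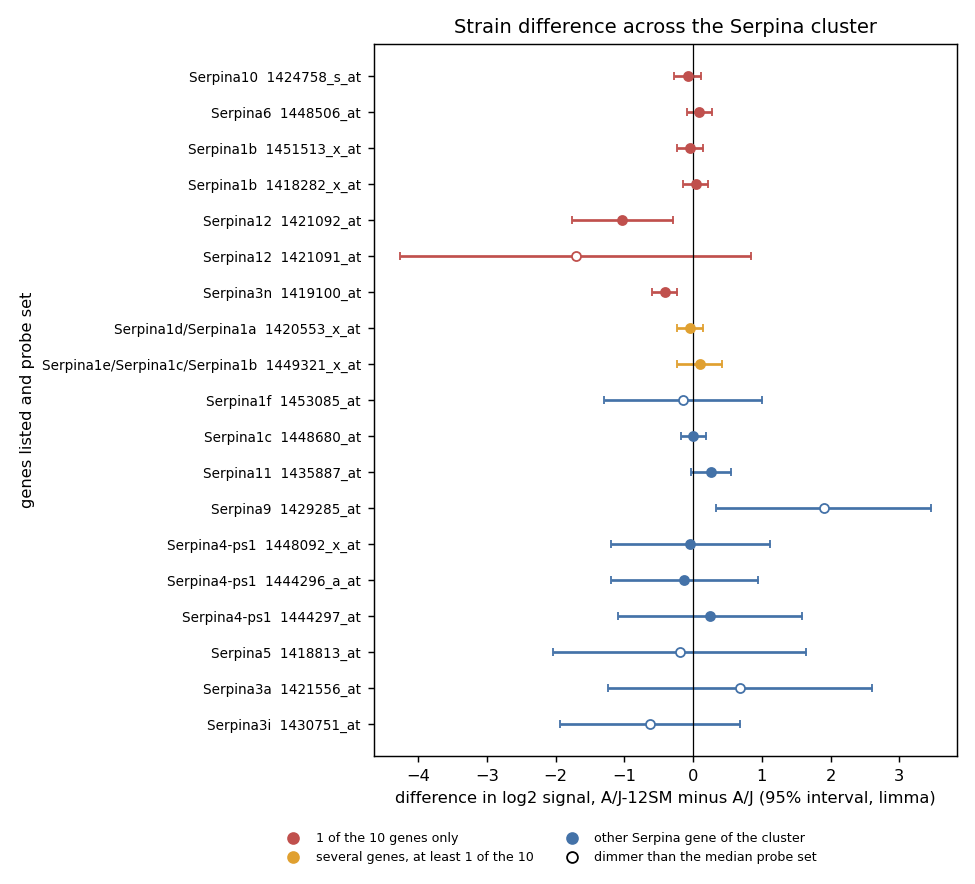
Difference in normalised log2 signal (A/J-12SM minus A/J, x axis) for the 19 probe sets of the Serpina cluster (y axis), with 95% intervals from limma; red marks probe sets listed for 1 of the 10 genes only, yellow those listed for several genes, blue those of other Serpina genes, and open points are dimmer than the median probe set. Intervals of the Serpina1, Serpina6 and Serpina10 sets cross 0, and those of Serpina3n, the brighter Serpina12 set and the dim Serpina9 set do not, although none passed after adjustment.

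Serpins outside chromosome 12 and general secretory genes were read for comparison. The secretory genes are not all off chromosome 12. The transcription factor Foxa1, at 0.25 (SE 0.18), and Sel1l of the folding list, at 0.24 (SE 0.10), lie on it. Both were picked with their values known. Of 10 measured plasma and liver serpins on other chromosomes, 3 had higher and 7 lower values, none was called and the median was -0.10. None of them had an unadjusted p under 0.05 in limma. All A/J-12SM arrays lay below all A/J arrays for 2 of the 10, against 5.83% of all probe sets. Serpina7, the thyroxine-binding globulin, had log2 values of 9.50 to 11.25 in A/J-12SM and 9.86 to 10.98 in A/J liver, a difference of -0.32 (SE 0.41) that was 0.06 without A/J-12SM replicate 1, and Serpinh1, a collagen chaperone, one of 0.23 (SE 0.18). Of 11 measured liver transcription factors of secretory genes, none was called and the median was -0.03. At an unadjusted p under 0.05 in limma, 2 of the 11 were higher, against 3.23% of all probe sets, and none was lower. Foxa2 had a difference of 0.39 (SE 0.17, adjusted p = 0.798 from limma) and Nr5a2 one of 0.33 (SE 0.14, adjusted p = 0.792 from limma). Of 13 genes of secretory protein folding and clearance, none was called and the median was -0.01. At an unadjusted p under 0.05 in limma, 3 of the 13 were higher and 1 was lower, against 3.23% and 3.01% of all probe sets. The strains did not overlap for 2 higher and 1 lower of the 13, against 6.13% and 5.83% of all probe sets. Syvn1, a ubiquitin ligase of the endoplasmic reticulum, had a difference of 0.48 (SE 0.12, adjusted p = 0.466 from limma), and Pdia4, a disulphide isomerase, one of -0.34 (SE 0.31). The Pdia4 value rested on A/J-12SM replicate 3, the array with the lowest actin ratio but not the lowest GAPDH ratio. Its log2 values were 9.50, 9.28 and 8.02 in A/J-12SM and 9.22, 9.29 and 9.32 in A/J liver. Without A/J-12SM replicate 3 the Pdia4 difference was 0.11. The part of RNA quality in the Pdia4 value was not tested.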

How the data were processed

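The authors deposited intensity values, linear MAS5 signals with 1 value for each probe set of an array; the sources used here give neither software version nor scaling. All 6 arrays were used, grouped by the strain in the labels. After 64 control probe sets were removed, log2 signals of 45037 probe sets were quantile normalised, since array levels differed between strains, and compared (A/J-12SM minus A/J, no covariates) in R 4.3.3 by limma 3.58.1, using eBayes with a brightness trend. P-values were adjusted over all probe sets by the Benjamini-Hochberg method and called under 0.05. Normalisation assumes that most genes do not differ. The fit was tested on simulated data.

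Of the probe sets 34945 list 1 gene, 932 several and 9160 none; symbols of 34741 were updated by gene ID in GRCm38.p6. Outside the 10 genes, the brightest probe set stands for a gene. The genes and lists were chosen with earlier results of these data known. Named are all 10 genes, and called list members or, where none was called, up to 2 with the largest difference at or above median brightness. Up to 3 neighbours within 2 Mb, under the same brightness rule, and the 3 genes most like Serpina3n over the 6 arrays are also named. Genes outside this rule are marked in the text as chosen or picked with their values known. Promoters were compared by global alignment, and matplotlib 3.10.9 (Python 3.11.15) drew the figures. The number of arrays limits the precision. Each array is a pool of mice, so p-values measure the spread between pools. The alternatives were other scalings, an offset, a filter on dim probe sets, 1 prior variance, a replicate block, the methods' t-test and leaving out each array.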

Additional observations from a re-analysis of the deposited data

How the results depend on the processing

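With each setting tried, no Serpina probe set passed after adjustment, and the differences of Serpina3n and of the brighter Serpina12 probe set kept their sign, from -0.59 to -0.35 and from -1.33 to -0.67. Differences close to 0 changed sign with the scaling: Serpina10 had 0.02 and Serpina1b (1451513_x_at) 0.16 with arrays centred on the median, Serpina1b (1451513_x_at) 0.13 with arrays scaled to 1 trimmed mean, and with the values as deposited Serpina1b (1418282_x_at) had -0.02 and Serpina6 -0.04. The median over the 7 probe sets, -0.08, was -0.22 with the values as deposited, 0.02 with centring and -0.01 with the trimmed mean. It was -0.06 over 8 probe sets with the set shared by Serpina1a and Serpina1d (chosen after seeing the data), and -0.13 to -0.03 with single arrays left out. Over the 4 probe sets with an unmarked ID, which leaves out Serpina1b and Serpina10, it was -0.72. Of these 4, 2 belong to Serpina12 (-1.03 and the dim -1.70), so this median counts 1 gene more than once. Over the array 25 probe sets were called, against 47 with the values as deposited, 1 with 1 prior variance, 1 by the methods' t-test after adjustment and 6 to 23 with single arrays left out. By the methods' t-test without adjustment 2630 probe sets had a p under 0.05, among them 2 of the 7, Serpina3n and Serpina1b (1418282_x_at), where the A/J arrays hold the same rank. With the replicate number as a block 28 probe sets were called over the array and 0 of the 7. Same-numbered deviations from the strain means correlated at -0.057, 0.089 and 0.156 for replicates 1, 2 and 3, and differently numbered ones at -0.227 to 0.148. With so few arrays these values cannot decide whether the numbers pair the arrays. The remaining causes of these shifts were not tested, and 3 arrays a strain limit what can be detected.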

Other observations

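Genes beside the cluster also showed differences that did not pass after adjustment. Within 2 Mb of the 10 genes, 46 other genes were measured on chromosome 12, none of them called in limma, and the median difference was -0.04. An unadjusted p under 0.05 was found for 6 of the 46, against 6.23% of all probe sets. The strains did not overlap for 8, with 6 lower and 2 higher in A/J-12SM, against 5.83% lower and 6.13% higher over all probe sets. Ifi27, an interferon-induced gene at 103434189 to 103440245, had deposited signals of 755, 802 and 565 in A/J-12SM and 1604, 1780 and 1308 in A/J liver. Its normalised difference was -0.93 (SE 0.16, adjusted p = 0.16 from limma), and the arrays did not overlap. Ifi27l2a, whose annotated span of 103433873 to 103443680 contains that of Ifi27, had 125, 103 and 135 in A/J-12SM and 180, 262 and 177 in A/J liver, a difference of -0.53 (SE 0.21, adjusted p = 0.774 from limma). As the spans overlap, signals of these genes may not be independent. Trip11, a Golgi-associated protein at 101834045 to 101913171, had a difference of -0.46 (SE 0.15, adjusted p = 0.678 from limma), also without overlap. The largest difference of the 46 was that of Tc2n, a gene dimmer than the median probe set that was picked with its values known. It was -1.55 (SE 0.33, adjusted p = 0.345 from limma), without overlap.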
